A study of Macaca mulatta with 24 samples.

Results

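The mitochondrial ribosomal protein genes were followed in whole blood of rhesus macaques before and after a single total body irradiation. The members were all genes whose symbol on the array began with MRPL or MRPS and a number, 59 of 14822 distinct symbols, measured by 81 of 43603 probes. Each gene was read from its brightest probe, and 58 of the 59 were tested because 4 or more of the 24 arrays had their probe well above background. MRPL17 was the one not tested. The 24 one-colour Agilent arrays fell into 4 groups: 7 taken before irradiation (4 males and 3 females, dose 0 Gy), 4 at day 3 (3 males and 1 female), 6 at day 5 (4 males and 2 females) and 7 at day 7 (4 males and 3 females), the last 3 groups after 4 Gy. All animals were adult rhesus macaques of Chinese origin with no genetic modification, and every sample was peripheral blood drawn into tubes that stabilise RNA, from which globin transcripts were depleted. The labels name X-rays and place the pre-irradiation samples at day 0, whereas the study's methods name gamma rays from cobalt and a draw some days before exposure. They also name a human array, whereas the labels name a rhesus one and the array files carry probe positions on a rhesus build. No unirradiated group was followed over the same days on these arrays, so irradiation cannot be told apart from time or repeated bleeding.

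Mitochondria keep their own ribosome, which translates the few messenger RNAs of the mitochondrial genome into core subunits of the respiratory chain and of ATP synthase. All of its proteins are encoded in the nucleus, made in the cytoplasm and imported. The MRPL genes encode proteins of the large subunit, where peptide bonds are formed, and the MRPS genes mostly those of the small subunit, which reads the message. Some of these proteins descend from the bacterial ribosome, while others are found only in mitochondria. Lymphocytes, platelets and young red cells hold mitochondria, mature red cells do not. Of the members tested, 39 belonged to the large subunit, counting MRPS18A and the peptidyl-tRNA hydrolase MRPL58, and 18 to the small subunit. MRPS36 is now assigned to the alpha-ketoglutarate dehydrogenase complex and was kept because the symbol rule took it.

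Between 48.3% and 61.2% of the probes on each array were well above background. The arrays were read in 2 scan sessions. The first held 6 pre-irradiation and 6 day 7 arrays, the second pre-irradiation replicate 5, day 7 replicate 5 and all arrays of day 3 and day 5, so the day 3 and day 5 comparisons had 1 control array in their own session. Day 7 replicate 2 was the dimmest array, with a scaling shift of -2.03 on the log2 scale against 0.87 at the other end. The members themselves were well measured: 56 of the 59 were well above background on all 24 arrays, and no member spot was saturated.

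A minority of the mitochondrial ribosomal protein transcripts passed the test after irradiation, all of them lower, while the means of most of the others lay below the pre-irradiation mean without passing. At day 3, 56 of the 58 members had a mean below the pre-irradiation mean, at day 5 55 and at day 7 53, where 50.2%, 50.5% and 50.9% of all named genes were below. Over the members the change had a median of -0.48, -0.45 and -0.33 on the log2 scale at days 3, 5 and 7, or 0.716, 0.733 and 0.797 of the pre-irradiation signal, while the median over all named genes was -0.01 on each of the 3 days. The size of these medians depended on the processing: they were -0.32, -0.14 and -0.053 without the filter on dim probes, -0.40, -0.64 and -0.16 with normexp background correction, and -0.21 at day 7 with quantile scaling. In total, 52 members were below the pre-irradiation mean on all 3 days and 1, MRPL28, was above it on all 3. At the adjusted p threshold of 0.005, 12, 6 and 3 members fell at days 3, 5 and 7 by limma, and none rose on any day. At an unadjusted p under 0.05, 0, 0 and 1 member were higher, the last being MRPL4 at day 7, and 33, 32 and 25 members passed in either direction, beside 46.8%, 43.9% and 38.1% of the named genes.

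Against the share of all named genes that fell, these counts differed by day. At day 3 20.7% of the members were called lower, beside 7.53% of the named genes. The number of members called did not hold in other fits, given here with the share of all probes called in either direction. It was 0 of 58 with the replicate number as a block (2.77%) and 0 of 58 with normexp (0.501%). It was 3 of 59 without the filter on dim probes (6.31%) and 4 of 29 with the authors' values (15.4%). No share called lower was worked out for these fits, so whether the excess held in them cannot be said. With the block and normexp few probes were called at all, so 0 members cannot show a loss. In the main fits the shares of members and named genes called lower were 10.3% and 9.08% at day 5. At day 7 they were 5.17% and 7.2%, so the called share was near the background on the later days. With calls in both directions counted, 13.4% of the named genes were called at day 3, 15.3% at day 5 and 9.89% at day 7. At an adjusted p under 0.05 the members passing numbered 26, 24 and 16, beside 35.9%, 33.8% and 26.2% of the named genes. At day 3, 21 of the 58 members had every irradiated array below every pre-irradiation array, which held for 12.1% of the named genes. At day 5 this was so for 8 members, beside 8.35% of the named genes, and at day 7 for 3, beside 6.04%.

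**Figure D1:**
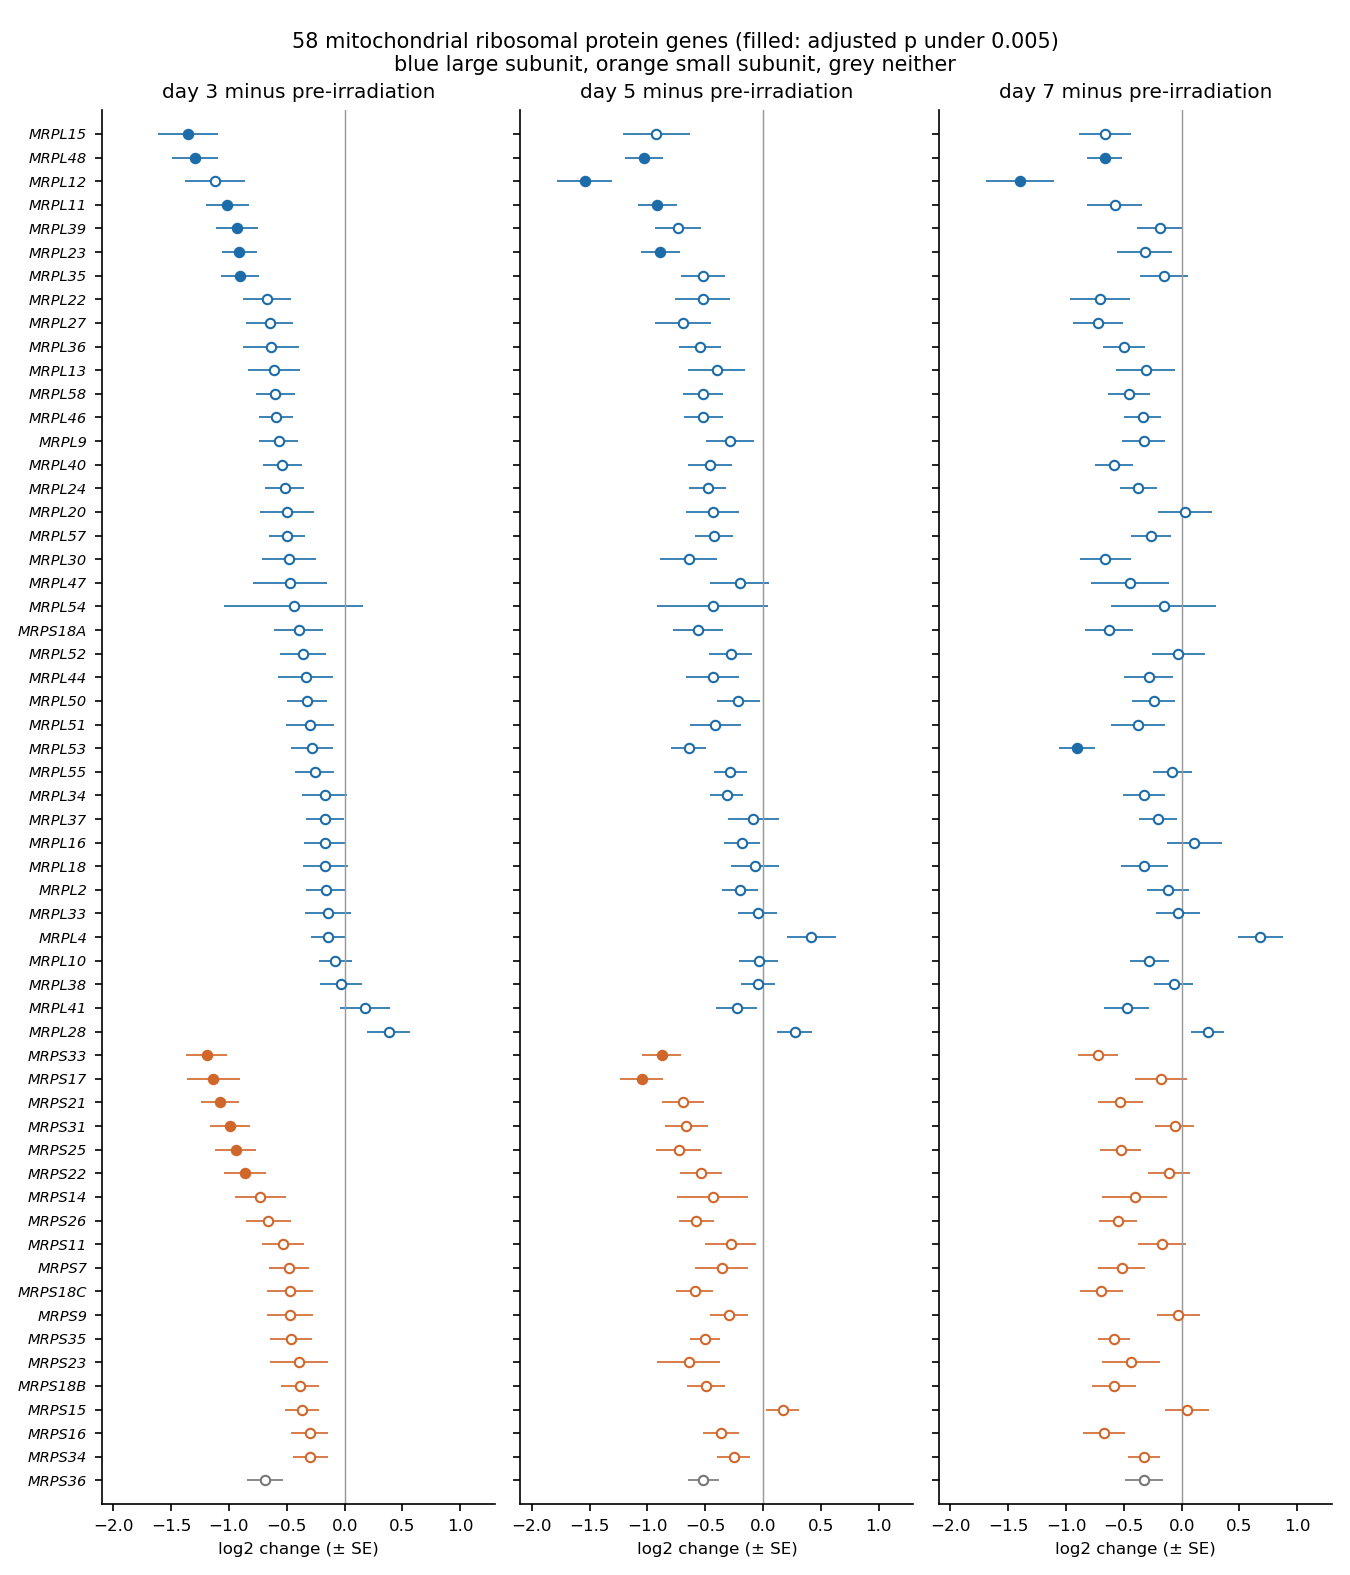
Log2 change of each of the 58 tested members (rows) from the pre-irradiation mean at day 3, day 5 and day 7 (panels), with horizontal bars for ± SE, 7 arrays before irradiation against 4, 6 and 7 after. Filled points are below the adjusted p threshold of 0.005: 12, 6 and 3 members, all on the lower side, in blue for the large and orange for the small subunit.

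The family's level on each array was given as the mean over the 58 members of the log2 signal minus each gene's pre-irradiation mean. The 7 pre-irradiation arrays ran from -0.14 to 0.22 (SD 0.12). The 4 day 3 arrays were at -0.31, -0.62, -0.71 and -0.47 for replicates 1, 2, 4 and 7, all below the lowest pre-irradiation array. The 6 day 5 arrays ran from -0.72 to -0.04 with a median of -0.54, and the 7 day 7 arrays from -0.79 to 0.15 with a median of -0.32. The groups therefore overlapped at day 5 and day 7, and the spread over arrays was wider at day 7 (SD 0.30) than before irradiation. Pre-irradiation replicate 5, the control read in the session of day 3 and day 5, was at -0.04, within the range of the other 6.

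The replicate numbers paired the arrays, so each irradiated array was also set against the pre-irradiation array of the same number. At day 3, 44, 57, 56 and 49 of the 58 members were lower than their own pre-irradiation value in replicates 1, 2, 4 and 7, and 40 members were lower in all 4. At day 5, 25 members were lower in all 6 replicates, as was MRPL46 in the 5 replicates where it had a value, and at day 7, 9 members were lower in all 7. Among named genes with a value in every replicate, 27.8%, 21.7% and 12.6% were lower in all of them on the 3 days. In replicate 4, 56 of 58 members were lower at day 3, 32 of 57 at day 5 and 16 of 58 at day 7, and the median change went from -0.64 to -0.10 and 0.16. Replicate 2 was at the other end, with medians of -0.89, -0.98 and -1.09. Without replicate 4, the median change of the family at day 7 was -0.42, and leaving out each replicate in turn gave -0.42 to -0.21. Day 7 replicate 2 was the dimmest array.

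**Figure D2:**
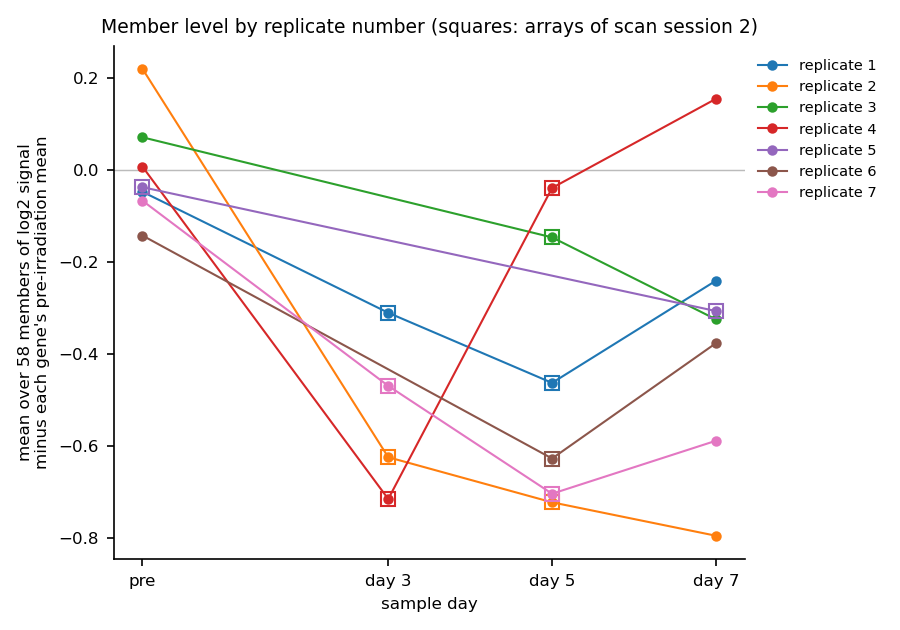
Mean over the 58 members of the log2 signal minus each gene's pre-irradiation mean (vertical axis) by sample day (horizontal axis), 1 line per replicate number, with squares around arrays of the second scan session. All 4 day 3 arrays lie below the lowest pre-irradiation array at -0.14, and replicate 4 ends at 0.15 while replicate 2 ends at -0.79.

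Probes of 6 called members are shown here as they stand on the array, since a fold change on an array is that of a 60-base oligonucleotide. They were chosen after their values were seen, 1 per gene, and those of MRPL23 and MRPS17 are the second probe of the gene and not the one its level was read from. Positions are on rheMac2, the build named in the array files, and the strand is the one the files give. The probes of MRPL12, MRPL23 and MRPL39 span 144, 3481 and 3975 bases of the genome, so they lie across exon junctions.
MRPL12, chr16:77182569-77182712, plus strand: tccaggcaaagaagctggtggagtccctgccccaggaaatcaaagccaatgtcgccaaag
MRPL23, chr14:1864697-1868177, plus strand: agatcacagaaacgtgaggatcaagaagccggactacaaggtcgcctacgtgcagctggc
MRPL39, chr3:21079434-21083408, plus strand: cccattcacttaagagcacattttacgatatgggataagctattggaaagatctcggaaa
MRPS17, chr3:70189152-70189211, minus strand: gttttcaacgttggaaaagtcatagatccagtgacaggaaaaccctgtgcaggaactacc
MRPS21, chr1:128681288-128681347, plus strand: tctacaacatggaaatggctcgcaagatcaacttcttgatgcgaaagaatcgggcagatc
MRPS22, chr2:148471094-148471153, minus strand: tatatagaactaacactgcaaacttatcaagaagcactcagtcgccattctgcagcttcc
The GC content of the brightest probes of the 59 members ran from 25% to 75% with a median of 45%.

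The largest decreases among members called at day 3 were those of MRPL15, MRPL48, MRPS33, MRPS17, MRPS21 and MRPL11, each to below 0.50 of the pre-irradiation signal. MRPL15, a large subunit protein of bacterial descent, had log2 signals of 9.18, 8.56, 8.18 and 9.07 at day 3 in replicates 1, 2, 4 and 7, whereas the pre-irradiation arrays ran from 9.65 to 10.61 with a median of 9.88. The groups did not overlap, and the change was -1.35 ± 0.26 (SE, adjusted p = 0.00237). MRPL15 was at -0.93 ± 0.29 at day 5 (adjusted p = 0.0232) and -0.66 ± 0.23 at day 7 (adjusted p = 0.0402), neither past the threshold.

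MRPL48, a large subunit protein found only in mitochondria, was the 1 member called on all 3 days. Its log2 signals ran from 11.28 to 11.97 before irradiation with a median of 11.42. They were 10.29, 10.54, 9.75 and 10.42 at day 3, from 10.18 to 10.88 at day 5 (median 10.47) and from 10.60 to 11.20 at day 7 (median 10.92). No irradiated array on any of the days reached the lowest pre-irradiation one. The changes were -1.29 ± 0.20 (adjusted p = 0.000811), -1.03 ± 0.17 (adjusted p = 0.000399) and -0.67 ± 0.15 (adjusted p = 0.00471). The day 7 call was lost without any one of replicates 1, 2, 3, 5, 6 or 7, with 75th percentile or quantile scaling, normexp or no filter on dim probes, with the replicate, slide or session as a block, and within the first scan session. The day 3 call was lost with normexp, with the replicate, slide or session as a block, within the second session and without replicate 1 or 4. The day 5 call was lost with normexp, without the filter, with the session as a block and within the second session. The direction was the same throughout. At day 3 the slide block and the second session called no probe of any gene, so losing the call there says nothing about MRPL48. Normexp on each day, and the session block and second session at day 5, called few probes of any gene. So did the session block at day 3, and a call lost in these fits says little about MRPL48 alone.

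Among small subunit proteins, MRPS33, which is specific to mitochondria, had log2 signals of 9.66, 9.27, 9.32 and 9.54 at day 3 against 10.37 to 11.07 before irradiation, with no overlap. Its change was -1.19 ± 0.18 at day 3 (adjusted p = 0.000684) and -0.88 ± 0.17 at day 5 (adjusted p = 0.00134), and -0.72 ± 0.18 at day 7 missed the threshold (adjusted p = 0.0072). MRPS21, which has a bacterial counterpart, was at 8.52, 8.26, 8.07 and 8.19 at day 3 against 8.96 to 9.59 before (change -1.08 ± 0.16, adjusted p = 0.000759). By day 7 it was at -0.53 ± 0.19 (adjusted p = 0.0528), and 5 of its 7 arrays were still below the pre-irradiation range.

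MRPS17, a small subunit protein of bacterial descent, fell at day 3 and day 5 and was not called at day 7. Its log2 signals were 9.0, 8.50, 8.07 and 8.81 at day 3, from 8.24 to 8.98 at day 5 (median 8.72) and from 8.92 to 10.18 at day 7 (median 9.38), against 9.09 to 10.04 before irradiation (median 9.83). The first 2 groups lay wholly below the pre-irradiation arrays, whereas day 7 overlapped them on both sides. The changes were -1.14 ± 0.23 (adjusted p = 0.00306), -1.05 ± 0.18 (adjusted p = 0.000725) and -0.18 ± 0.22 (adjusted p = 0.581). The second MRPS17 probe, printed above, gave -0.77 at day 3 (adjusted p = 0.0184) and -0.70 at day 5, which passed (adjusted p = 0.00412).

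The stalk of the large subunit, which recruits translation factors, is built on MRPL10, MRPL11 and MRPL12, and the last 2 were called while MRPL10 was not. MRPL12, of which a pool is also reported to bind the mitochondrial RNA polymerase, had the largest decrease of any member at day 5 and at day 7. Its log2 signals ran from 9.93 to 11.42 before irradiation (median 10.36), from 8.63 to 9.48 at day 5 (median 8.96) and from 8.37 to 9.96 at day 7 (median 9.13). The day 5 arrays lay below all pre-irradiation arrays, and 5 of the 7 day 7 arrays did. The changes were -1.54 ± 0.24 (adjusted p = 0.000277) and -1.40 ± 0.29 (adjusted p = 0.00286). At day 3 the arrays were at 9.55, 9.37, 9.40 and 9.45, again without overlap, and the change of -1.12 ± 0.26 was just short of the threshold (adjusted p = 0.00644). Its second probe gave -1.45 and passed at day 3 (adjusted p = 0.000827). The day 7 call was lost without any one of replicates 1, 2, 5, 6 or 7, within the first scan session, with normexp and without the filter on dim probes. Normexp called few probes of any gene at day 7.

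MRPL11, at the base of the stalk, was at 10.72, 10.30, 10.17 and 10.56 at day 3 against 11.01 to 11.72 before irradiation, and the groups did not overlap. It fell by 1.01 ± 0.19 at day 3 (adjusted p = 0.00196) and by 0.91 ± 0.17 at day 5 (adjusted p = 0.00114). At day 7 it was at -0.58 ± 0.24 (adjusted p = 0.0798). MRPL10, the scaffold of the stalk, was at -0.08 ± 0.14, -0.04 ± 0.17 and -0.28 ± 0.17, none past the threshold (adjusted p = 0.687, 0.88 and 0.247), and its arrays overlapped the pre-irradiation range on each day.

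**Figure D3:**
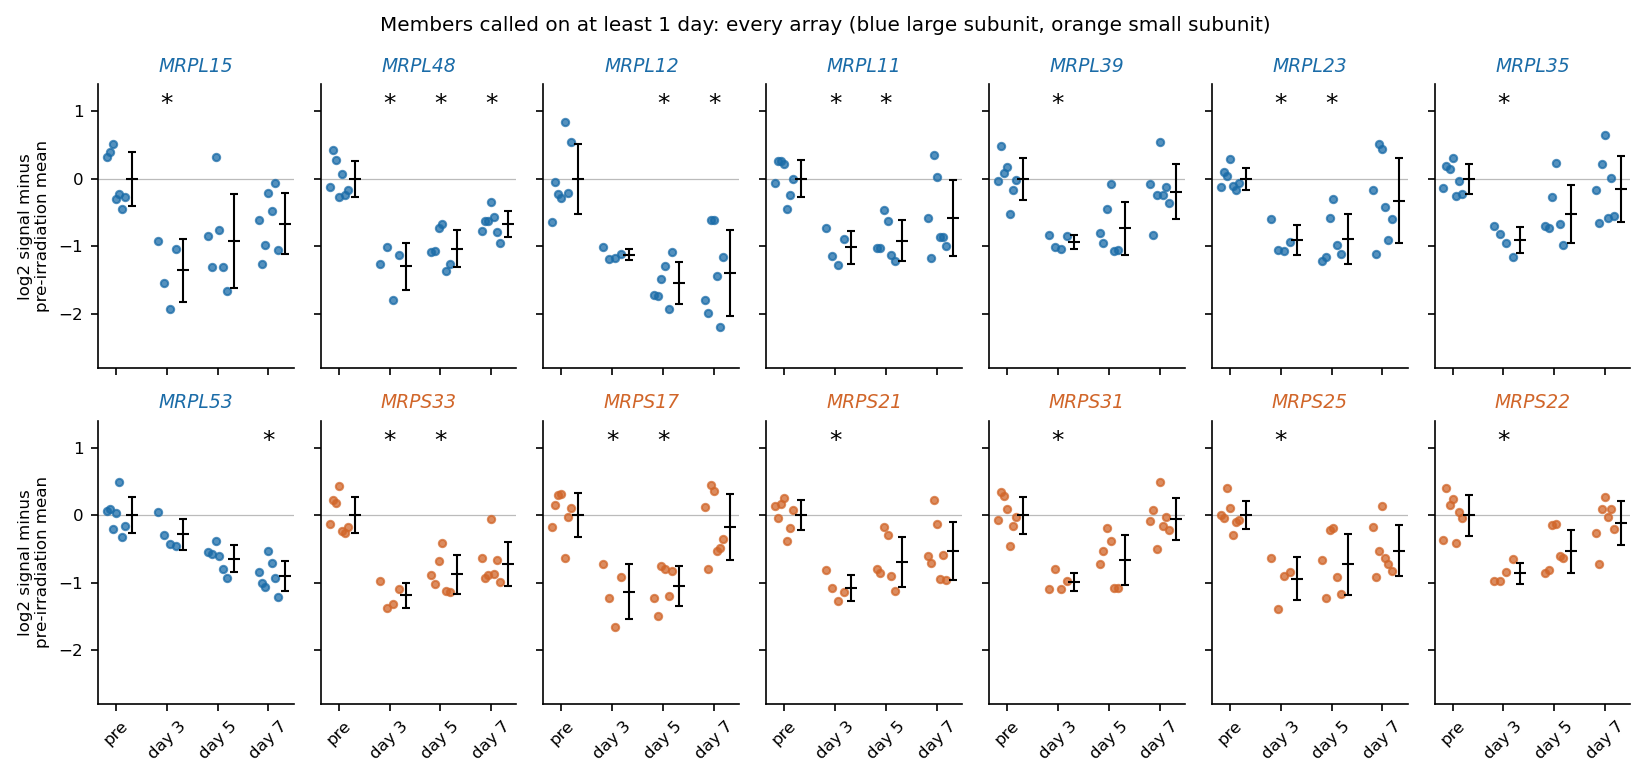
Log2 signal of every array minus the gene's pre-irradiation mean (vertical axis) by group (horizontal axis) for the 14 members called on at least 1 day, with the mean ± SD in black beside the points and a star where the adjusted p was below 0.005. MRPL48 has stars on all 3 days, and at day 7 the arrays of MRPS17, MRPS31 and MRPS22 overlap the pre-irradiation arrays.

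Of the proteins around the peptidyl transferase centre, where peptide bonds form, MRPL2, MRPL16 and MRPL27 were on the array by symbol, and none was called. MRPL27 was the lowest of these, at -0.65 ± 0.20 at day 3, -0.69 ± 0.24 at day 5 and -0.72 ± 0.22 at day 7 (adjusted p = 0.0277, 0.0392 and 0.0224). MRPL2 lay between -0.20 and -0.12 and MRPL16 between -0.18 and 0.11 over the 3 days. All 4 day 3 arrays of MRPL27 and 6 of its 7 day 7 arrays were below its pre-irradiation range, whereas the arrays of MRPL2 and MRPL16 overlapped theirs on every day.

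MRPL22, MRPL23, MRPL24 and MRPL44 were read as proteins around the exit of the tunnel through which the new chain leaves, and of these 4 MRPL23 was called. MRPL23 was at 12.37, 11.90, 11.88 and 12.02 at day 3 against 12.79 to 13.25 before irradiation, and between 11.74 and 12.66 at day 5, both without overlap. The change was -0.91 ± 0.15 at day 3 (adjusted p = 0.00129) and -0.89 ± 0.17 at day 5 (adjusted p = 0.00115). The probe across an exon junction shown above gave larger values, -1.48 and -1.49, both called (adjusted p = 0.000319 and 7.13e-05). At day 7 the brighter probe gave -0.32 ± 0.24 (adjusted p = 0.345), with 4 arrays below and 2 above the pre-irradiation range. MRPL22 was at -0.67, -0.52 and -0.70, MRPL24 at -0.52, -0.48 and -0.37 and MRPL44 at -0.34, -0.44 and -0.29 on the 3 days, with adjusted p between 0.0257 and 0.33.

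MRPL53, a mitochondria-specific protein of the large subunit, was called at day 7 and not before. Its log2 signals ran from 13.54 to 14.35 before irradiation (median 13.89), and were 13.90, 13.56, 13.43 and 13.39 at day 3, from 12.92 to 13.47 at day 5 (median 13.26) and from 12.64 to 13.32 at day 7 (median 12.92). The day 3 arrays overlapped the controls and the later ones did not. The changes were -0.29 ± 0.18 (adjusted p = 0.237), -0.65 ± 0.15, just above the threshold (adjusted p = 0.00504), and -0.90 ± 0.16 (adjusted p = 0.000723). The day 7 call was lost with quantile scaling, with normexp, which called few probes of any gene, and without the filter on dim probes.

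A further 5 members were called at day 3 alone, outside the 6 largest, and were named after their values were seen. They were MRPS31 at -0.99, MRPS25 at -0.94 and MRPS22 at -0.86 of the small subunit, and MRPL39 at -0.93 and MRPL35 at -0.91 of the large one (SE 0.16 to 0.18, adjusted p from 0.00158 to 0.00441). Each had all 4 day 3 arrays below all 7 pre-irradiation arrays. At day 7 MRPS31 was at -0.06, MRPS22 at -0.11, MRPL35 at -0.15 and MRPL39 at -0.19, while MRPS25 was at -0.53, none past the threshold. All 3 probes of MRPS31 were called at day 3, at -0.99, -0.93 and -0.75.

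The members with the highest values were also named after they were seen. MRPL4, a large subunit protein of bacterial descent, had 6 of its 7 day 7 arrays above the pre-irradiation range (7.04 to 8.33 against 6.47 to 7.05), a change of 0.68 ± 0.19 that missed the threshold (adjusted p = 0.0166). MRPL28, also of bacterial descent, was at 0.38 ± 0.18, 0.27 ± 0.15 and 0.23 ± 0.14 on the 3 days, and MRPL41, specific to mitochondria, at 0.18 ± 0.22, -0.23 ± 0.18 and -0.48 ± 0.20. None of these was called.

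By subunit, 6 of 39 large and 6 of 18 small subunit members were called at day 3, with median changes of -0.47 and -0.51. At day 5 these were 4 and 2, with medians of -0.44 and -0.52, and at day 7 3 and 0, with medians of -0.32 and -0.48. By descent, 6 of 32 members with a bacterial counterpart and 6 of 25 mitochondria-specific ones were called at day 3 (medians -0.49 and -0.44). At day 5 the counts were 4 and 2 and at day 7 1 and 2. All of these calls were lower, and 7.53%, 9.08% and 7.2% of all named genes were called lower on the 3 days. No test was made of a difference between these classes.

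Of the 17 members with several tested probes, no gene had probes called in opposite directions on any day. At day 3 2 of these genes had every tested probe called and a further 2 had some. The largest gap between probes of a gene was 0.57 for MRPL23 at day 3, 0.75 for MRPL47 at day 5 and 0.65 for MRPL33 at day 7. The count of members with any probe called was 13, 7 and 3 on the 3 days. The share of all named genes under this looser rule was not worked out, so these counts have no background beside them.

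The calls at day 3 depended on single arrays and on how blocks were handled. With the replicate number as a block, 0 of the 58 members were called at day 3 by limma, while 29 had an unadjusted p under 0.05 and the median change was -0.52. That fit called 2.77% of all probes. At day 5 and day 7 the block gave 7 and 2 members. Leaving out replicate 1, 2, 4 or 7 left 3, 1, 0 and 2 members called at day 3, where those fits called 5.15%, 5.99%, 3.18% and 6.6% of all probes against 13.5% with every array. Leaving out replicate 1, 2 or 7 left 3 members at day 5 (at most 11.2% of probes, against 16.7%), and leaving out replicate 1, 2, 5, 6 or 7 left 1 at day 7 (6.1% to 9.49% of probes, against 10.9%). With the scan session as a block, which rests on pre-irradiation replicate 5 for day 3 and day 5, 0 members were called at day 3 (13 with an unadjusted p under 0.05), 1 at day 5, MRPL12, and 2 at day 7, with medians of -0.50, -0.40 and -0.33. At day 3 and day 5 these fits called 0.137% and 1.41% of all probes. Within the first session alone, 6 arrays against 6, the day 7 median was -0.36 and 1 member, MRPL53, was called, with 7.72% of all probes.

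Between the irradiated days no member was called by limma at the threshold of 0.005. Day 5 against day 3 had a median difference of 0.08 with 1 member at an unadjusted p under 0.05, day 7 against day 3 a median of 0.14 with 12, and day 7 against day 5 a median of 0.07 with 5. These comparisons called 0.0373%, 1.61% and 0.00931% of the named genes, and 11.1%, 34.2% and 21.2% were at an unadjusted p under 0.05. The groups did not hold the same replicates, and only replicates 1, 2, 4 and 7 had arrays at both day 3 and day 7. Against their own pre-irradiation arrays, the median change of these replicates was -0.22, -0.89, -0.64 and -0.35 at day 3. At day 7 it was -0.20, -1.09, 0.16 and -0.58. In 1 fit of all 4 groups 1 member passed for day 7 against day 3, MRPS31, which was higher by 0.93 ± 0.20 (adjusted p = 0.002). At the looser adjusted p of 0.05, 7 members passed for day 7 against day 3, beside 17.1% of the named genes. Higher at day 7 were MRPS17 (0.95), MRPS31 (0.93), MRPL4 (0.82), MRPS22 (0.75), MRPL39 (0.74) and MRPL48 (0.63), and MRPL53 was lower (-0.62). The difference in response between males and females at day 7 was tested by an interaction in limma, which called 0 of the 58 members and had 0 at an unadjusted p under 0.05 (smallest adjusted p 0.599), with 4 males and 3 females.

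The members were next set beside other genes of mitochondrial translation and of the respiratory chain. The lists of genes were described by counts and medians. The 4 mitoribosome subunits with other names were below 0 on all days (medians -0.61, -0.53 and -0.30), and AURKAIP1 was the one called, at day 5 (-0.67 ± 0.13, adjusted p = 0.0017). Of 21 assembly factors, 3 fell at day 3, MALSU1 (-1.36 ± 0.23), MTERF3 (-1.16 ± 0.19) and RPUSD3 (-0.71 ± 0.16). At day 5 2 fell and MTG2, a GTPase, rose (0.93 ± 0.20), and at day 7 NGRN fell (-0.91 ± 0.19). The medians of the list were -0.35, -0.27 and -0.14.

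Of 15 mitochondrial translation factors, the initiation factor MTIF3 was called at day 5 alone (-0.78 ± 0.17), and the medians were -0.46, -0.25 and -0.16. Of 17 mitochondrial tRNA synthetases and partners, NARS2 and QRSL1 fell at day 3 (-1.15 ± 0.19 and -0.98 ± 0.21), 3 fell at day 5 and none was called at day 7, with medians of -0.27, -0.05 and 0.06. Of 10 genes of mitochondrial transcription and RNA processing, the transcription factor TFB2M (-1.34 ± 0.28) and the RNA granule protein GRSF1 (-1.23 ± 0.20) fell at day 3 and none was called later, with medians of -0.61, -0.42 and -0.17. Among 8 regulators of mitochondrial biogenesis, MYC fell at day 3 and day 5 (-2.56 ± 0.37 and -1.96 ± 0.41), ESRRA rose on the same days (0.89 ± 0.18 and 0.96 ± 0.16), and MAX fell at day 7 (-0.84 ± 0.15).

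The products of mitochondrial translation are encoded in the mitochondrial genome, and 13 such transcripts were measured. None was called at day 3 by limma (1 at an unadjusted p under 0.05), 2 fell at day 5 and 6 at day 7, and the medians went from -0.38 to -0.72 and -1.40. At day 7 ND2, a subunit of complex I, was at -1.90 ± 0.33 and the ATP synthase subunits ATP8 and ATP6 were at -1.48 ± 0.34 and -1.47 ± 0.29. The 65 nuclear subunits of oxidative phosphorylation had medians of -0.43, -0.44 and -0.44, with 7, 14 and 12 called, all lower, led by the cytochrome oxidase subunit COX7B (-1.96 ± 0.30, -2.01 ± 0.28 and -2.02 ± 0.27).

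Ribosomes of the cytoplasm are built from another set of nuclear genes. Of 72 tested, 41, 58 and 63 fell at days 3, 5 and 7, and none rose. Their medians were -1.06, -1.12 and -1.20, beside -0.48, -0.45 and -0.33 for the mitochondrial ones. RPS21 was at -1.72 ± 0.27 at day 3 and -1.75 ± 0.19 at day 5, and RPS27A at -1.81 ± 0.19 at day 7. On the array level, the 4 day 3 arrays of this list ran from -1.32 to -0.70 and the 7 day 7 arrays from -1.47 to -1.01. The 7 day 7 arrays of the members ran from -0.79 to 0.15.

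**Figure D4:**
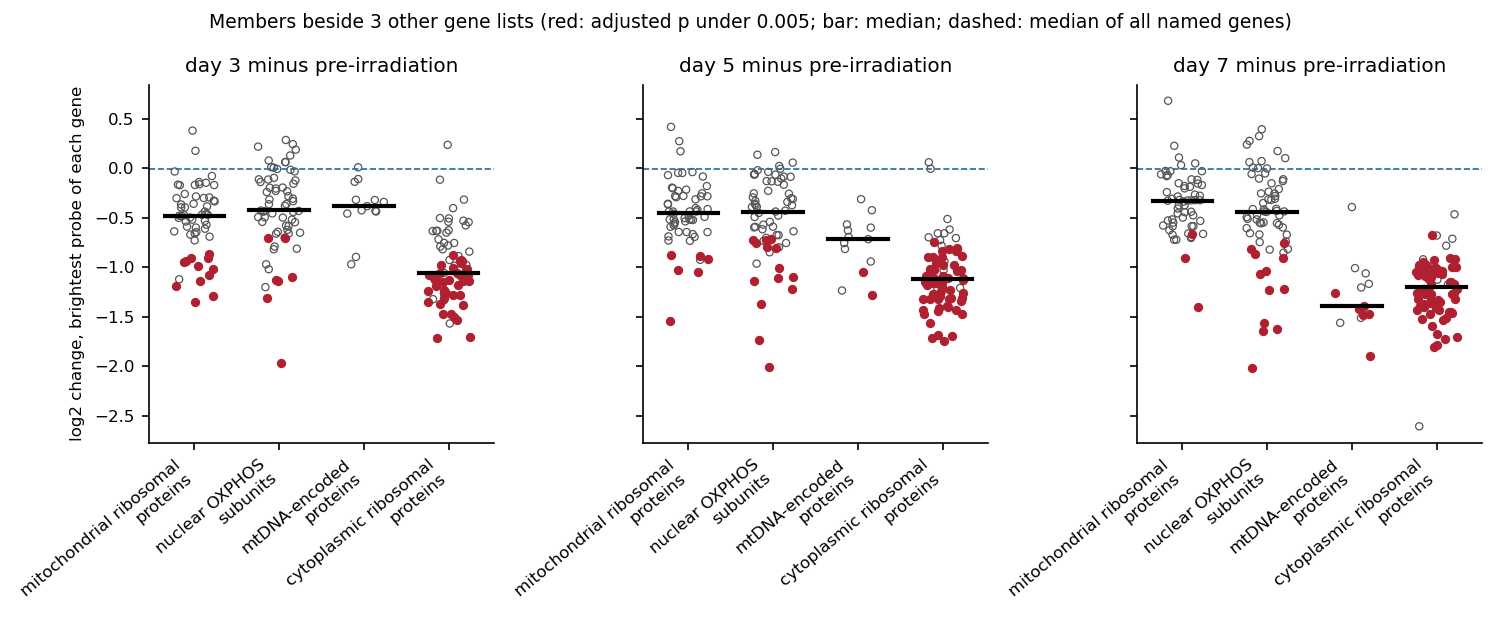
Log2 change against the pre-irradiation mean (vertical axis) of each gene at its brightest probe at day 3, day 5 and day 7 (panels) for 58 mitochondrial ribosomal proteins, 65 nuclear oxidative phosphorylation subunits, 13 proteins encoded in mitochondrial DNA and 72 cytoplasmic ribosomal proteins. Red points are below the adjusted p threshold of 0.005, bars are medians and the dashed line is the median of all named genes; the bar of the members stays between -0.48 and -0.33 while that of the mitochondrially encoded transcripts goes from -0.38 to -1.40.

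Markers of several blood cell types moved over the same days, and in whole blood fewer cells of a type and less RNA per cell cannot be told apart. Of 77 marker genes on the array, 1, PAX5, was well above background on no array. On the scale used for the members, the mean of the B cell markers ran from -3.20 to -2.05 at day 3, from -3.53 to -2.52 at day 5 and from -3.65 to -2.49 at day 7, with 8 of 9 called lower on each day. The erythroid markers ran from -3.86 to -2.28, from -6.16 to -5.08 and from -6.78 to -1.82, with 8, 9 and 9 of 10 called lower. The T cell markers ran from -1.19 to -0.51 at day 3, from -0.61 to -0.16 at day 5 and from -0.33 to 0.28 at day 7, with 3, 1 and 0 of 11 called lower. The monocyte markers ran from 1.11 to 1.47, from 0.48 to 1.16 and from -0.22 to 1.09, with 3, 3 and 1 of 9 called higher.

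The platelet markers ran from 2.05 to 3.00 at day 3, from 0.14 to 1.33 at day 5 and from -0.87 to 0.93 at day 7, with 9, 2 and 0 of 9 called higher. The neutrophil markers ran from 0.26 to 1.66, from -0.27 to 1.34 and from -0.19 to 2.53, with 1, 1 and 0 of 9 called higher. Of the NK cell markers, none of 9 was called on any day by limma, with 2, 1 and 1 at an unadjusted p under 0.05. The cycling cell markers had 3 of 10 called lower at day 3, none at day 5 and 3 called higher at day 7, with arrays between -1.53 and -0.59, -0.64 and 2.90, and 0.13 and 3.17. The part of these cell types in the values of the members was not tested.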

How the data were processed

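Whole blood RNA of rhesus macaques was hybridised by the authors to one-colour Agilent rhesus arrays, scanned and read with Agilent Feature Extraction 10.7 per the labels (the file headers give a later version); the deposited scanner files hold background-subtracted signal intensity for each spot. The deposited series table of log2 values normalized by the authors, to the median array by the study's methods, had array medians from 7.37 to 7.70, held the brightest probe of 29 of the 59 members and served as an alternative. Here log2 processed intensity was shifted on each array to the array with the middle median, without control spots and outlier spots, and spots of a probe were averaged; MRPL46 had no value on day 5 replicate 4. Probes were kept where 4 or more of the 24 arrays had them well above background (27132 tested at day 3, 27138 on the later days). Each comparison was fitted with limma 3.58.1 in R 4.3.3 on the arrays of its 2 groups, with Benjamini-Hochberg adjustment over all probes and a threshold of 0.005, after the study's methods; the sex interaction used 0.05. The fits were tested on simulated data. The number of arrays limits the precision.

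Members and gene lists were chosen with earlier results of these data known. Members were named by a rule, the 6 largest called decreases and increases against pre-irradiation on each day and a set of role groups, and others are said to have been named after their values were seen; MRPL3, MRPL45, MRPS12 and MRPS24 of the role groups were not analysed here, and MRPS5 only through a probe description. Replicate numbers were checked by the correlation of deviations from group means: same-numbered arrays correlated between 0.13 and 0.65 in every pair, and different numbers had medians between -0.09 and -0.05, so the numbers were taken to pair the arrays. The main fits had no block and so left this pairing out, and fits with the replicate number as a block served as an alternative. The labels number arrays as replicates, and p-values measure the spread between arrays. Alternatives covered scaling, background, filters, blocks, sessions, single replicates and the choice of probe.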

Additional observations from a re-analysis of the deposited data

Results flagged for a closer look

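Across 100 sets of values, 24 named members and the mean of the family in 4 groups each, 3 arrays stood apart from the others of their group, and chance alone gives about 1 in 20 sets. MRPS33 was at 10.6 on the log2 scale in day 7 replicate 4, whose nearest neighbour was at 9.997. MRPL16 was at 9.85 in day 7 replicate 2, the dimmest array, with the nearest at 11.1. MRPL4 was at 6.58 in day 3 replicate 2, with the nearest at 6.71. No member passed the threshold by limma for a difference in response between males and females (0 at an unadjusted p under 0.05). In the fits of 2 groups none passed between days (1, 12 and 5 at an unadjusted p under 0.05 for day 5 against day 3, day 7 against day 3 and day 7 against day 5). MRPS31 passed for day 7 against day 3 in the fit of all 4 groups.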

How the results depend on the processing

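The 12, 6 and 3 members called at day 3, day 5 and day 7 became 0, 0 and 0 with normexp background correction, which called 0.501%, 0.877% and 1.14% of all probes (13.5%, 16.7% and 10.9% as reported). They became 4, 3 and 1 of 29 with the authors' values (15.4%, 21.0% and 13.5% of probes), 3, 1 and 0 without the filter on dim probes (6.31%, 9.84% and 6.36% of probes), and 26, 24 and 16 at an adjusted p of 0.05 (7 for day 7 against day 3). Quantile scaling and the first scan session each left 1 at day 7, the session as a block 0 and 1 at day 3 and day 5, and the slide as a block 0 at day 3 and no estimate at day 5. The second session, added after the data were seen, left 0 and 0 at day 3 and day 5. It holds 1 pre-irradiation array, assumed to vary like the others, and 1 slide held both pre-irradiation and day 3 arrays. These fits called 0% and 0.654% (session) and 0% (slide) of all probes and say nothing about the stability of the calls. One fit of all groups gave 6 at day 7 and 1 for day 7 against day 3. With the replicate block, 0, 7 and 2 members were called. Leaving out single replicates gave 0 to 12, 3 to 7 and 1 to 4 calls, and medians of -0.56 to -0.40, -0.55 to -0.37 and -0.42 to -0.21; between days, medians ran from -0.087 to 0.16 for day 5 against day 3, from -0.0029 to 0.22 for day 7 against day 3 and from 0.03 to 0.13 for day 7 against day 5. Without the filter the medians were -0.32, -0.14 and -0.053, normexp gave -0.40, -0.64 and -0.16 and 0.51 for day 7 against day 5, and quantile scaling gave -0.21 at day 7. The median for day 5 against day 3, 0.08, reversed to -0.25 with normexp, -0.21 with the slide as a block and -0.087 without replicate 4, and that for day 7 against day 3, 0.14, to -0.0029 without replicate 4. The median of all probes moved from 0.02 to 0.16 at day 5 with normexp and from 0.02 to -0.09 at day 3 without the filter. Every called member kept its direction in each alternative run. The cause of these shifts was not tested.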

Other observations

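A further 7 mitochondrial ribosomal protein genes were named in the probe descriptions but not in the gene name column and so were no members by symbol. At day 3 MRPS6, a small subunit protein, was at -1.31 (adjusted p = 0.00174) and MRPL1, a large subunit protein, at -1.23 (adjusted p = 0.000554), both past the threshold. MRPL32, MRPL14, MRPS28 and MRPS27 were at -0.88, -0.74, -0.70 and -0.46, and MRPS5 was at -0.18, none past it. At day 5 MRPS6 was at -0.78 (adjusted p = 0.00622) and at day 7 at -0.72 (adjusted p = 0.0245). With these 7 added, 14 of 65 genes were called at day 3, 6 at day 5 and 3 at day 7.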
